A study of Mus musculus with 74 samples.

Results

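The prolactin-related (Prl), pregnancy-specific glycoprotein (Psg) and Ceacam genes of the mouse were examined for nearby binding sites of KRAB zinc finger proteins (KRAB-ZFPs). The members were chosen by symbol alone, as genes of the mm9 annotation whose symbol starts with Prl and a digit, Psg or Ceacam. This gave 54 of 37273 annotated genes on assembled chromosomes, of which 25 are Prl, 14 Psg and 15 Ceacam genes. The gene of prolactin itself, Prl, has no digit and is not a member. A binding site was assigned to a member when the midpoint of its 200 bp window lay in the gene body or within 50 kb of it. Of 53011 binding sites in the genome, 82 met this rule.

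The study expressed 1 epitope-tagged KRAB-ZFP per sample and mapped its sites by ChIP-seq, in which DNA bound by the tagged protein is precipitated and sequenced. Sites were deposited as peaks, each with its count of reads (tags) and its fold enrichment over background. Of 67 KRAB-ZFPs with peaks, 58 were assayed in F9 EC cells, a mouse embryonal carcinoma line, and 9 in B6 ES cells, which are mouse embryonic stem cells. In F9 cells, 18 proteins were tagged with FLAG and the others with HA. The controls of the FLAG set were input and a FLAG control ChIP, those of 30 HA samples input and an HA control ChIP, and 10 HA samples, aligned with Bowtie2, had 1 control ChIP (Gm14296) instead. The 9 ES samples were tagged with HA and had input as their control. All groups share overexpression of the tagged protein, so the sites are those of added protein and not of the protein at its own level. With 1 sample per KRAB-ZFP, there is no replicate spread against which to set any value. Intervals are 95% intervals for counting error only, and related sites are counted in them as if they were separate. F9 and ES cells are not placenta, and no expression was measured in the files used here.

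Prl genes encode hormones and cytokines related to prolactin, most of which are made by trophoblast giant cells, spongiotrophoblast or decidua. Psg genes encode secreted glycoproteins of the trophoblast within the wider Ceacam family of immunoglobulin-like adhesion and signalling proteins. All of these families expanded by tandem duplication, so neighbouring members hold similar sequence. The family name does not make every member a placental gene: Ceacam1 and Ceacam2 are also adhesion receptors of epithelia and other tissues, and Ceacam16 is known from the inner ear. KRAB-ZFPs bind DNA through zinc finger arrays and recruit a repressor complex, and many of their known targets are retrotransposons.

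The families occupy 2 chromosomes. All Prl genes lie on chromosome 13, with 20 of them in 1 window from chr13:27136081-27999662 (mm9), and all Psg and Ceacam genes lie on chromosome 7. Merged with their flanks, the members cover 15 windows and 3.47 Mb, or 0.136% of the genome. The windows held 0.155% of all peaks. The density was 23.6 peaks per Mb (18.8 to 29.3), against 22.4 per Mb in the windows of all genes and 20.7 per Mb over the genome. By family, it was 19.9 peaks per Mb for Prl, 24.8 for Psg and 25.1 for Ceacam genes, with intervals that overlap. The interval of all members holds the values of all genes and of the genome. This depended on the calling threshold: with every sample held to a score of at least 100 and a fold over 20, 67 peaks remained at 19.3 per Mb (15.0 to 24.5), above 14.2 in the windows of all genes and 13.3 over the genome. At that threshold and without Gm14406, the member density was 13.3 per Mb (9.71 to 17.7), against 11.0 over the genome without it.

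A peak lay within 50 kb of 43 of 54 members (79.6%), while 87.7% of all genes had one. The median was 2 peaks per member and 3 per gene over all genes. Neighbouring members share flanks, and 31 of the 82 peaks were in reach of 2 or more members. The 11 members without a peak were Prl2c5, Prl8a8, Prl8a9, Prl8a1, Prl7c1, Prl2a1, Ceacam15, Ceacam11, Ceacam13, Psg18 and Psg28. Their nearest peaks lay between 50896 bp, a Gm14406 peak near Prl2c5, and 93649 bp, a Zfp808 peak near Prl7c1. The Prl2c5 value was just outside the 50 kb limit, and the value just inside it was 49134 bp, for a Gm14419 peak downstream of Prl5a1. Library depth is unknown here, so a missing peak does not show that a protein was not bound.

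**Figure D1:**
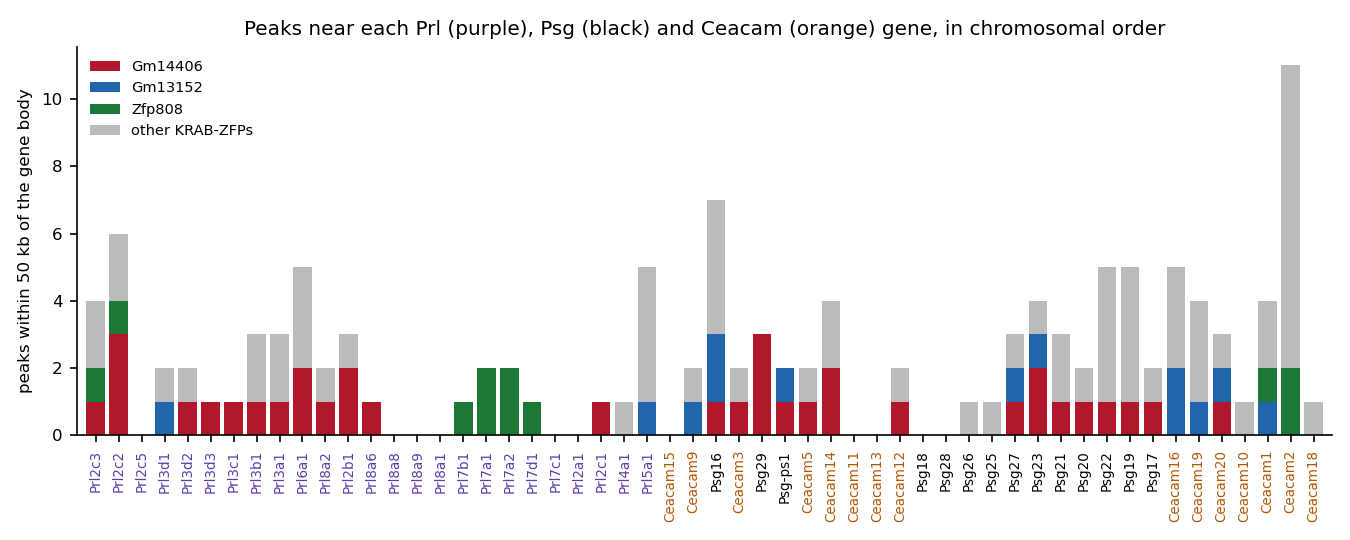
Bars give the number of peaks within 50 kb of the body of each of the 54 members, in chromosomal order (chromosome 13, then chromosome 7), coloured by KRAB-ZFP. Ceacam2 had the most, with 11 peaks, and 11 members had none. Bars of neighbours can count the same peak.

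Of 54 members, 6 (11.1%) had a peak in the gene body, where 25.9% of all genes had one. The density in members' bodies was 9.96 peaks per Mb (3.65 to 21.7), and in the bodies of all genes it was 20.7, a value inside that interval. Gm13152, whose peaks often sit at promoters, was left out as a check, and the shares were then 11.1% and 22.3%. All members are annotated as protein-coding. Their median body was 9143.5 bp, against 5384 bp for all genes and 15427 bp for protein-coding genes, of which 38.6% had a body peak. Each of the 6 members had 1 body peak. Prl3a1 carried a Gm14406 peak in an intron with 34 tags and a fold of 22.36. Psg16 carried a Zfp457 peak in an intron with 30 tags and a fold of 13.21. Psg23 carried a Gm21082 peak in its UTR with 22 tags and a fold of 29.99. The 3 Ceacam genes with one were Ceacam10, with a Zfp759 peak at a fold of 23.91, and Ceacam5 and Ceacam2, with Gm14401 peaks at folds of 9.61 and 14.99. Both Gm14401 peaks rested on few tags, 10 and 17, and had deposited false discovery rates of 9.93% and 10.8%.

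A peak lay within 5 kb of an annotated start in 4 of 54 members (7.41%), where 29.1% of all genes had one. Without Gm13152 these shares were 7.41% and 22.4%. The closest was a Gm14406 peak 2069 bp upstream of Psg16, followed by a Gm13225 peak 2658 bp upstream of Ceacam19. The others were the intronic peaks of Prl3a1, 3776 bp from its start, and Ceacam10, 4761 bp from its start. No peak lay within 1 kb of a member's start. Of the 82 peaks, 68 were intergenic, 12 intronic and 2 in UTRs, counting any annotated gene. The median distance from a peak to the nearest member body was 18134 bp, with 42 peaks upstream and 34 downstream of that member.

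Of the 67 KRAB-ZFPs, 25 had a peak near a member, and 12 of these had 1 peak only. Gm14406 had the most, with 21 of its 5685 peaks. It was followed by Gm13152 with 11 of 5189, Zfp808 with 6 of 544, Gm14412 with 5 of 2787, and Gm14401 and Gm21082 with 4 of 1541 and 4 of 2211. A Gm14406 peak lay near 27 of 54 members, against 16.0% of all genes. A Zfp808 peak lay near 8 members (14.8%), against 2.65% of all genes. By this count of genes Gm13152 went the other way, with 11 members (20.4%) against 34.5% of all genes. For Gm14412 the shares were 16.7% and 14.7%, and for Gm14401 they were 9.26% and 9.93%, so both were near the background.

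Members share peaks, so the peaks were also counted once each. Gm14406 had 6.05 peaks per Mb in the members' windows (3.75 to 9.25) and 2.22 over the genome. Zfp808 had 1.73 per Mb (0.635 to 3.77) and 0.213 over the genome. Gm13152 had 3.17 per Mb (1.58 to 5.67) and 2.03 over the genome, a value inside that interval. The lower share of members with a Gm13152 peak therefore did not go with a lower density of its peaks. Among KRAB-ZFPs with at least 3 peaks near members, the largest shares of their own peaks were 1.10% for Zfp808 (0.406 to 2.39), 0.677% for Gm13157 (0.140 to 1.97), 0.545% for Gm13051 (0.113 to 1.59), 0.369% for Gm14406 (0.229 to 0.564) and 0.260% for Gm14401 (0.0708 to 0.663). The windows cover 0.136% of the genome, a value inside the intervals of Gm13051 and Gm14401 and just below that of Gm13157. A KRAB-ZFP with few peaks could reach 3 near members only with a large share, so this ranking is no test. Other KRAB-ZFPs went the other way. Gm13251 had 0 of its 3300 peaks near a member (0 to 0.112%), an interval below 0.136%. Gm13225 had 1 of 3570 (0.000709 to 0.156%). Without Gm14406 the members' windows had 17.6 peaks per Mb (13.5 to 22.6), against 18.5 over the genome without it.

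**Figure D2:**
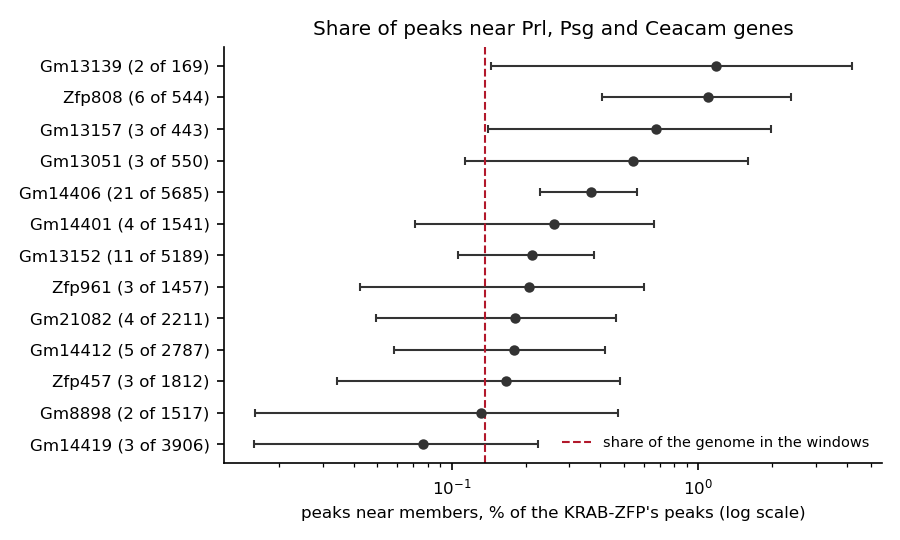
Points give the percent of each KRAB-ZFP's peaks that lay near a member, on a log scale, for the 13 KRAB-ZFPs with 2 or more such peaks, with exact binomial 95% intervals for counting error. The dashed line marks the 0.136% of the genome in the members' windows. Of the intervals drawn, those of Zfp808, Gm14406, Gm13139 and Gm13157 lie above it. A KRAB-ZFP with few peaks could enter the figure only with a large share, so its place above the line is no test. The Gm13139 peaks, and the paired Gm13157 peaks, are also copies of each other. Most pairs of windows of Zfp808 (12 of 15) and of Gm14406 (206 of 210) aligned with each other as well. Gm13251, with 0 of 3300 peaks near members (0 to 0.112%), is not drawn and lies below the line.

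Gm14406, Gm13152 and Gm14412 had peaks nearest members of all 3 families, while other KRAB-ZFPs had few peaks and met fewer families. Zfp808 had 4 peaks nearest a Prl gene, 2 nearest a Ceacam gene and 0 nearest a Psg gene. All 3 Gm13157 peaks were nearest a Prl gene, and all 3 Gm13051 and both Gm13139 peaks nearest a Ceacam gene. All 3 Zfp457 peaks were nearest a Psg gene. Gm14406 had 9 peaks nearest Prl, 8 nearest Psg and 4 nearest Ceacam genes. It lay near 12 of 25 Prl, 10 of 14 Psg and 5 of 15 Ceacam genes. These counts are small, several of the sites are copies of each other, and no test of the difference between families was made.

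Members with sites of many KRAB-ZFPs were fewer than among all genes: 4 of 54 (7.41%) had peaks of 5 or more KRAB-ZFPs within 50 kb, where 21.8% of all genes did. These were Ceacam2 with 7 KRAB-ZFPs, and Psg16, Psg22 and Psg19 with 5 each. Some of these counts include peaks with high deposited false discovery rates. At Psg22 and Psg19 this was a Gm14401 peak (12.6%, 16 tags), and at Psg19 also a Zfp457 peak (10.5%). At Ceacam2 they were peaks of Gm14401 (10.8%) and Zfp600 (9.46%). The share over all genes was counted from peaks with the same lack of a filter. Around Psg16, 5 of the 7 peaks belonged to other genes' neighbourhoods. Gm13152 peaks lay 161 bp from a start of Ppp5c and 208 bp from a start of Hif3a, and a Zfp961 peak lay 137 bp from a start of Hif3a. Zfp457 and Zfp872 shared a site in an intron of Hif3a, with folds of 12.46 and 21.03 and midpoints 138 bp apart. Psg22 and Psg19 shared a group of 3 peaks within 2068 bp, of Gm14412, Gm14401 and Gm21082, in sequence found once in the genome. Their folds were 25.73, 14.24 and 27.16.

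Zfp808 had sites of 1 sequence at several members. Its 6 peaks lay upstream of Prl2c3, Prl2c2, Prl7a1 and Prl7a2 and at 2 places around Ceacam2, and 12 of the 15 pairs of their windows aligned over at least 100 bases at 81.9 to 99.0% identity. Prl2c3 and Prl2c2 are proliferin genes, whose products are placental angiogenic hormones. The best conserved 60 bases of 5 of the windows are shown because they are what these sites have in common. Capitals mark the 53 positions identical in all 5, read 5′ to 3′ in 1 orientation, with mm9 coordinates and strand.
Zfp808 near Prl2c3, chr13:12919150-12919209, minus strand: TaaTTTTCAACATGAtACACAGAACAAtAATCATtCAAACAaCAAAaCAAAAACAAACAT
Zfp808 near Prl2c2, chr13:13135183-13135242, minus strand: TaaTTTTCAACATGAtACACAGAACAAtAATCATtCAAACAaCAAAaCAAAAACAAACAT
Zfp808 near Prl7a2, chr13:27771654-27771713, plus strand: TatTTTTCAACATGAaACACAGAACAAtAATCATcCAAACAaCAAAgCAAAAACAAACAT
Zfp808 between Ceacam1 and Ceacam2, chr7:26287362-26287421, plus strand: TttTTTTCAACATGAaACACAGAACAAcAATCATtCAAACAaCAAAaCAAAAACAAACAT
Zfp808 upstream of Ceacam2, chr7:26343521-26343580, plus strand: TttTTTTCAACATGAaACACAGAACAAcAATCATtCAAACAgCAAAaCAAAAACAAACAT
The Prl2c3 and Prl2c2 stretches are the same letter for letter. The Prl7a1 peak was the weakest of the 6, with 128 tags and a fold of 21.90. The folds of the other peaks were 45.72 at Prl2c3, 66.03 at Prl2c2, 63.82 at Prl7a2, 43.43 between Ceacam1 and Ceacam2 and 65.15 upstream of Ceacam2. Away from the members, 441 of the other 538 Zfp808 peaks (82.0%) aligned to at least 1 of these 6 windows, so most Zfp808 peaks in the genome hold related sequence.

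Prl2c3 (chr13:12883089-12892345) and Prl2c2 (chr13:13088393-13097659) both lie on the minus strand. Their flanks carried the same pair of peaks at nearly the same spacing within the pair. The distance to the gene differed: the Gm13157 peak of the pair lay 25847 bp upstream of Prl2c3 and 36570 bp upstream of Prl2c2. Upstream of Prl2c3, a Gm13157 peak (451 tags, fold 128.9) stood 949 bp from the Zfp808 peak, and upstream of Prl2c2 a Gm13157 peak (295 tags, fold 174.5) stood 947 bp from it. The Gm13157 windows were 98.0% identical and the Zfp808 windows 99.0% identical, and the copies lay 216037 and 216035 bp apart. A further Gm13157 peak 31702 bp upstream of Prl2c3 (290 tags, fold 113.6) had no partner at Prl2c2. At Prl2c2, a weak Zkscan17 peak with 13 tags and a fold of 11.02 overlapped the Zfp808 window, with midpoints 72 bp apart. Of the other Prl2c genes, Prl2c5 had no peak within 50 kb and Prl2c1, which lies in the main Prl cluster, had a Gm14406 peak 22436 bp away. Gm13157 was assayed with a reporter carrying a target named for the retrotransposon class IAPLTR4, and the best match of that target in each window is given here. Capitals mark bases identical to the target.
Gm13157 target: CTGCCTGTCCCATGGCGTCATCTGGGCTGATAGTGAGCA
Prl2c3, chr13:12918176-12918214, plus strand: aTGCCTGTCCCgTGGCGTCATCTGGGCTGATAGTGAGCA
Prl2c2, chr13:13134212-13134250, plus strand: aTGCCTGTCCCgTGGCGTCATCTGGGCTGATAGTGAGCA
Prl2c3, further upstream, chr13:12924009-12924047, plus strand: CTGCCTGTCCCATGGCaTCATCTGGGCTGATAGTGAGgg
The paired sites matched the target at 94.9% of its bases and the unpaired one at 92.3%, which is also the median over all 443 Gm13157 peaks. The 24-base words of the paired Gm13157 windows had a median of 2 copies in the genome. A read with equally good positions was placed at 1 of them by chance, so reads from one copy could be counted at the other; its part in the paired folds was not tested.

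Ceacam1 (chr7:26246721-26262644) and Ceacam2 (chr7:26301061-26325023), also on the minus strand, had a similar arrangement of 3 KRAB-ZFPs. Going from Ceacam1 towards Ceacam2, peaks followed in the order Gm13051 (fold 123.2), Gm13139 (22.40) and Zfp808 (43.43), and beyond the start of Ceacam2 they followed again as Gm13051 (108.6), Gm13139 (32.65) and Zfp808 (65.15). The first of each order lay 12602 bp upstream of Ceacam1 and 12146 bp upstream of Ceacam2. Zfp808 followed Gm13139 after 153 and 173 bp, while Gm13139 followed Gm13051 after 12017 and 6243 bp. Window identities between the copies were 95.5% for Gm13051 and 97.4% for both others. The Gm13051 peaks were among the strongest near any member, at the 99.0 and 94.8 percentile of fold among that protein's peaks. The Gm13139 target, named for RMER16-int, had 34 of 37 identical bases at both places (91.9%).
Gm13139 target: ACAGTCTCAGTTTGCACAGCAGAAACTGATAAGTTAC
Between Ceacam1 and Ceacam2, chr7:26287263-26287299, minus strand: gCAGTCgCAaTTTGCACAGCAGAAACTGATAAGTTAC
Upstream of Ceacam2, chr7:26343423-26343459, minus strand: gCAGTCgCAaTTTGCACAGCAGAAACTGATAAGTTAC
Both copies differ from the target at the same 3 bases. The 24-base words of these Gm13139 windows had a median of 3 and 2 copies, and those of the Zfp808 windows beside them 22 and 6. The random placement of reads therefore applies here too.

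**Figure D3:**
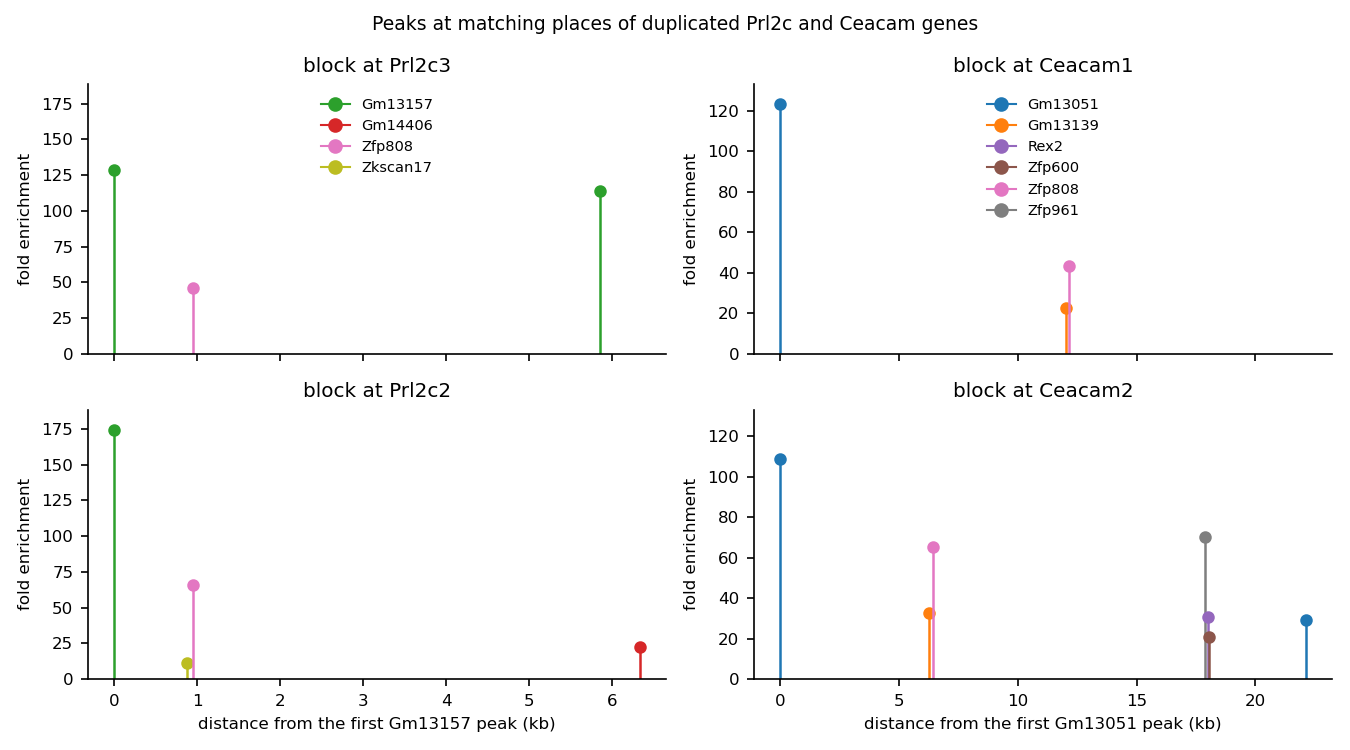
Each point is a peak, with its distance in kb from the first Gm13157 peak (left, Prl2c3 above Prl2c2) or the first Gm13051 peak (right, Ceacam1 above Ceacam2), against its fold enrichment. Gm13157 and Zfp808 recur at 949 and 947 bp on the left, and Gm13051, Gm13139 and Zfp808 recur in the same order on the right; peaks over 10 kb from the reference are left out on the left.

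Further upstream of Ceacam2 stood a cluster of sites with matches to retrotransposon targets. Zfp961 had a peak 30014 bp upstream with 107 tags and a fold of 69.96, Rex2 one 156 bp further with 26 tags and a fold of 30.87, and Zfp600 one 11 bp beyond that with 9 tags and a fold of 20.83. A further Gm13051 peak, with 37 tags and a fold of 29.17, stood 4249 bp past the Zfp961 peak. The Zfp961 window held a full copy of its target, the primer binding site for lysine tRNA at which reverse transcription of a retrovirus-like element starts. The Rex2 window held its MMETn target with 49 of 50 bases identical (98.0%), which equals the median over all Rex2 peaks. For Zfp961 the median match was 66.7%. All 3 Gm13051 windows near Ceacam1 and Ceacam2 matched that protein's MMETn target at 82.0% of bases, below the median of 86.0% over all Gm13051 peaks.
Zfp961 target in the window, chr7:26355022-26355042, plus strand: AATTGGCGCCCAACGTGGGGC
Rex2 target in the window, chr7:26355189-26355238, minus strand: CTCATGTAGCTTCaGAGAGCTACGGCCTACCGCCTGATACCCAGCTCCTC
The capitals again mark identical bases. These windows had a median of 125 to 146 copies of their 24-base words, so a peak here may draw on reads of other copies. The Rex2 and Zfp600 windows overlap, and this was 1 of 3 sites near members shared between KRAB-ZFPs, out of 79 merged sites (3.80%), against 6.31% of 48767 merged sites over the genome. Elsewhere near members Zfp961 had no such match: its peaks near Hif3a and upstream of Psg20 matched the target at 61.9% and 66.7% of bases.

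Gm14406 peaks near members were copies of 1 repeated sequence. Of the 210 pairs among its 21 windows, 206 aligned over at least 100 bases at 80.5 to 100% identity, and 95.5% of the other 5664 Gm14406 peaks aligned to at least 1 of them. Their folds ran from 20.41 near Ceacam12 to 48.60 near Psg27. For 12 peaks the 24-base words of the window had a median of 5283 to 8395 copies in the genome, and for 6 peaks the median was 1 to 7 copies. The latter were those nearest Prl2c2, Prl8a6, Psg16, Psg29, Ceacam12 and Psg27. In all, 15 of the 21 (71.4%, 47.8 to 88.7) had a median of 10 or more copies, against 91.6% of all Gm14406 peaks. Windows from 4 members with highly copied sequence are set beside the Psg27 window, the strongest Gm14406 peak near a member and 1 of those in single copy sequence. Capitals mark the 51 of 60 positions identical in these 5 windows.
Psg29, chr7:17831623-17831682, plus strand: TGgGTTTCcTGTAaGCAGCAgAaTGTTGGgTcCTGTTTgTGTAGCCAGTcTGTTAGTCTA
Prl3d3, chr13:27257373-27257432, minus strand: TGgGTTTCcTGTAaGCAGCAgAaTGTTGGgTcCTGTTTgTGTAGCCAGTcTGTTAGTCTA
Prl3a1, intron, chr13:27355040-27355099, minus strand: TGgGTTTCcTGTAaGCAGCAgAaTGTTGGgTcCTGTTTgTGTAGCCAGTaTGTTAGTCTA
Ceacam14, chr7:18434295-18434354, plus strand: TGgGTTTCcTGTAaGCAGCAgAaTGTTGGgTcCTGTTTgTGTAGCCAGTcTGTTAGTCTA
Psg27, chr7:19167788-19167847, minus strand: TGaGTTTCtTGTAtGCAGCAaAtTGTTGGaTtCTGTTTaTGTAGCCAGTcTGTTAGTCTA
The Psg27 peak had 75 tags and a fold of 48.60, at the 96.9 percentile of Gm14406 peaks, and the other 4 had folds of 33.05, 22.65, 22.36 and 25.87. A placement of reads by chance among so many copies makes the location of the highly copied peaks uncertain. That limit is smaller for the Psg27 window, whose 24-base words had a median of 1 copy. How the reads of that peak could be placed was not tested.

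The Gm13152 sites near members differed in how well they matched its target. In 5 of its 11 windows the RLTR13B1 target was matched at 84.6% or more of its 26 bases, and these lay 4545 to 26598 bp from the nearest start of any gene. In the other 6 the best match was 65.4% or less, and 3 of these lay within 1 kb of a start, of Ap2s1, Ppp5c and Hif3a, none of them a member. The rest, nearest Ceacam16 and Ceacam1, neither matched nor lay that close, at 1200, 3887 and 6884 bp from a start. Over all 5189 Gm13152 peaks, 1099 (21.2%) matched at 80% or more and 2597 lay within 1 kb of a start, with 8 peaks doing both. The matching sites near members are shown, with capitals for bases identical to the target.
Gm13152 target: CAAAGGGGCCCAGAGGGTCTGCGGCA
Upstream of Prl3d1, chr13:27144154-27144179, plus strand: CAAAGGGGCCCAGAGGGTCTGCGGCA
Upstream of Prl5a1, chr13:28207717-28207742, minus strand: CAAAGGaGCCCAGAGGGTCTGCGGCA
Upstream of Psg-ps1, chr7:18243451-18243476, minus strand: CAAAGGGaCCCAGAGGGTCTGCtGCA
Upstream of Psg27, chr7:19169789-19169814, minus strand: CAcAGGGGCCCAGAGGGTCTGCaGCA
Downstream of Ceacam20, chr7:20614275-20614300, minus strand: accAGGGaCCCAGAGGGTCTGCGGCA
Their folds were 45.44 at Prl3d1, a placental lactogen gene, 24.54 at Prl5a1, 20.90 at Psg-ps1, 36.36 at Psg27 and 28.18 at Ceacam20. The exact copy had the highest fold of the 5. The Prl3d1 site lay 41916 bp upstream of that gene and 5274 bp from a start of Prl, the prolactin gene. The Psg27 site stood beside the Gm14406 peak described above.

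**Figure D4:**
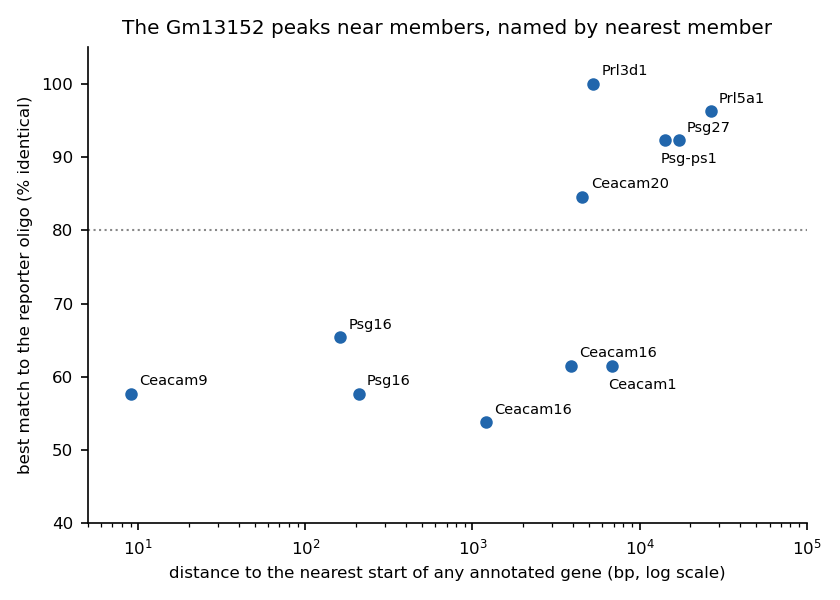
Each point is 1 of the 11 Gm13152 peaks near members, named by its nearest member, with the distance to the nearest start of any annotated gene (bp, log scale) against the best match to the Gm13152 target (percent of 26 bases). The 5 points above the dotted line at 80% lie 4545 to 26598 bp from a start, and the 3 within 1 kb of a start match at 57.7 to 65.4%.

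Gm21082, whose target is named for IAPLTR1_Mm, had a pair of peaks 6762 bp apart upstream of Prl5a1. Their windows were identical over the 171 aligned bases, and both held the full target, read on the minus strand. A full match is the usual case for Gm21082, with a median of 100% over its 2211 peaks.
Upstream of Prl5a1, chr13:28216486-28216515, minus strand: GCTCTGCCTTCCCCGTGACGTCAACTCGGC
Upstream of Prl5a1, chr13:28223219-28223248, minus strand: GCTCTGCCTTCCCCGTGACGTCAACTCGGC
Both had 41 tags, with folds of 42.02 and 40.02, and medians of 1068 and 1110 copies. The Gm21082 peak in the UTR of Psg23 matched 27 of the 30 target bases, while the one shared by Psg22 and Psg19 matched 15. Prl5a1 had 5 peaks of 4 KRAB-ZFPs in all, the others being of Gm13152, Gm14391 and Gm14419. The Gm14391 peak, 5026 bp upstream, had 14 tags, a fold of 10.31 and a deposited false discovery rate of 100%.

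Of the 5 Gm14412 windows near members, 3 aligned with each other. They lay near Prl8a2, Prl4a1 and Ceacam12, with 89.4 to 94.4% identity and folds of 22.25, 32.52 and 28.25. The other 2, near Psg26 (fold 43.82, a median of 28864 copies) and Psg22 (fold 25.73, in single copy sequence), aligned with none of them. Gm14419 and Gm8898, both assayed in ES cells, had peaks together at 2 places, 926 bp apart downstream of Prl3a1 and 1372 bp apart downstream of Ceacam14. At Prl3a1 the folds were 41.67 for Gm14419 and 16.11 for Gm8898, and at Ceacam14 they were 29.92 and 10.97. The Gm14419 and Gm8898 windows at these places had a median of 65 or more copies.

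Peaks near members were of ordinary strength for their proteins. Ranked within its own KRAB-ZFP, the fold of a peak near a member had a median percentile of 47.5, with quartiles of 26.2 and 71.8. The highest among KRAB-ZFPs with at least 100 peaks were Gm13051 near Ceacam1 at 99.0, Gm14406 near Psg27 at 96.9, Gm13157 near Prl2c2 at 96.4, Gm6710 near Prl3d1 at 96.3 and Gm13051 near Ceacam2 at 94.8. The Gm6710 peak lay 15540 bp upstream of Prl3d1 and had 16 tags and a fold of 29.14. Of the 82 peaks, 34 (41.5%, 30.7 to 52.9) had a median of 10 or more copies, against 34.5% of all peaks. The share was 53.6% near Prl, 34.8% near Psg and 36.4% near Ceacam genes, with overlapping intervals. The bodies of the genes are partly repeated as well: in the median member 20.6% of 24-base words occurred 2 or more times in the genome, and in Prl2c3 and Prl2c2 90.2% and 91.6% did.

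Cell line and tag were compared per gene over KRAB-ZFPs by a two-sided Fisher's exact test with Benjamini-Hochberg adjustment over all genes tested. Different proteins were expressed in each arm, so cell line, antibody, control and protein change together and cannot be told apart. Between F9 and ES samples, 0 of 43 members passed an adjusted p of 0.05, while 4 of 32685 genes (0.0122%) did. At an unadjusted p under 0.05 there were 1745 genes (5.34%) and 3 of the 43 members (6.98%), Prl3b1, Prl3a1 and Ceacam14, each with a peak in 1 of 58 F9 and 2 of 9 ES samples (Fisher's exact test, p = 0.0453, adjusted p = 0.861). In each of them the ES peaks were those of Gm14419 and Gm8898. Prl3b1 and Prl3a1 were in reach of the same 3 peaks, so these neighbours count 1 place again. Between FLAG and HA samples in F9 cells, 0 of 25 members passed and 0 of 28389 genes (0%) did, which says nothing about the members. At an unadjusted p under 0.05 there were 0 of the 25 members and 1840 genes (6.48%). The smallest member p was 0.136 (Fisher's exact test), for peaks in 2 of 18 FLAG and 0 of 30 HA samples. A gene with peaks in only 1 or 2 of these samples cannot go lower, and most of the 25 members had no more. The 0 is thus no sign of a difference from other genes. Of the sample sets, the 10 F9 samples aligned with Bowtie2 had 28 of 10478 peaks near members (0.267%), of which 21 were of Gm14406, and the others had 0.110 to 0.150%.

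The nearest like cluster is that of the placental cathepsins and the trophoblast genes Tpbpa and Tpbpb, also tandem duplicates on chromosome 13. Its 10 genes had 22 peaks of 12 KRAB-ZFPs at 32.7 per Mb (20.5 to 49.6), an interval that overlaps that of the members. A peak lay near 9 of the 10 genes, and a Gm14406 peak near 9 of 10 as well. Between Ctsr and Cts6, peaks of Gm13051 (fold 27.55), Gm13139 (28.72) and Zfp808 (66.70) followed in the same order as near Ceacam1 and Ceacam2, with 3370 and 128 bp between them. None of the 10 genes had a Gm13152 peak within 50 kb. The other 19 genes on the list of placental regulators and hormones had 49 peaks at 19.7 per Mb. Among these genes is Prl, whose 2 peaks, of Gm13152 and Gm6710, are also counted near members. Of the 49 peaks, 8.16% (2.27 to 19.6) were in highly copied sequence. That share was 41.5% near members and 40.9% (20.7 to 63.6) in the cathepsin and Tpbp cluster.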

How the data were processed

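KRAB-ZFP ChIP-seq peaks of overexpressed, epitope-tagged proteins were analysed. The members and lists were chosen with earlier results of these data known. The authors mapped reads to mm9 with Bowtie or Bowtie2, placing a read with equally good positions at 1 of them by chance, and called peaks per sample with MACS 1.4.2 at thresholds that differed between samples (tools per the submitters' processing notes, which also list deepTools). Where a sample had an input and a control ChIP, peaks called against both were kept. Windows were set to 200 bp around the summit. The deposited values per peak are a tag count, a score (10 times the negative log10 of the p-value), a fold enrichment (a ratio over background), a false discovery rate in percent, and positions and widths in bp. Library depth is not given, and the tags in peaks ranged from 1681 to 540220 per KRAB-ZFP. One name with 244 rows had no matching label and was left out, and 1 labelled KRAB-ZFP matched no name.

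Genes were taken from gencode vM1 on NCBIM37, which is mm9, with positions counted from 1. Groups are the labelled proteins, 1 sample each. Copy number was the median number of exact genome copies of the 24-base words of a window, and 10 or more was taken as highly copied. Windows were aligned with blastn 2.17.0 (at least 80% identity over 100 bases) and shared stretches with mafft 7.526. Target sequences are the reporter oligos of the study's oligo list, placed without gaps on both strands. Merged sites joined windows of different KRAB-ZFPs that overlapped by 25% or more. Exact Poisson and binomial (Clopper-Pearson) 95% intervals cover counting error only. Fisher's exact test was run with scipy 1.17.1 over all genes with a peak and checked on simulated data. Members were named with values if they had a body peak, a peak within 5 kb of a start or were among the 5 with most KRAB-ZFPs. KRAB-ZFPs were named if among the 5 with most peaks or with the largest shares from 3 peaks, or if they shared a site or held 1 of the 5 highest fold percentiles. Members and KRAB-ZFPs named beyond that were chosen after their values were seen. Alternatives to the reach, thresholds, copy minimum and alignment limits were tried. The sequence of 1 window is not reported here.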

Additional observations from a re-analysis of the deposited data

How the results depend on the processing

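Counts depended mainly on the reach. With 82 peaks, 43 members and 25 KRAB-ZFPs at 50 kb, gene bodies alone gave 6 peaks, 6 members and 5 KRAB-ZFPs, a reach of 20 kb gave 44 peaks, and 100 kb gave 124. Holding all samples to a score of 100 and a fold over 20 left 16 KRAB-ZFPs, since many samples were called at weaker thresholds. The density near members then stood at 19.3 per Mb against 13.3 over the genome. Dropping highly copied windows left 48 peaks, at 13.8 per Mb near members against 13.6 over the genome. Counting windows from 2 copies as highly copied gave 63.4% in place of 41.5%, and requiring 90% identity over 150 bases gave 90 pairs of similar windows in place of 241. In alternatives chosen after seeing the data, the stricter threshold without Gm14406 gave 13.3 per Mb near members and 11.0 over the genome, 61 peaks and 38 members remained without Gm14406, and 81 peaks without the KRAB-ZFPs whose median false discovery rate was 100%. With gene bodies alone or at the stricter threshold, Fisher's exact test called 0 of all genes as well as 0 members, so these alternatives say nothing about the members. No paired analysis was possible because each KRAB-ZFP had 1 sample, which also leaves no replicate to leave out. Unknown library depth and the random placement of reads limit what a missing peak or a peak in copied sequence can show.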

Other observations

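Among the other genes of placental biology, Prlr, the receptor for prolactin and placental lactogens, had 6 peaks of 5 KRAB-ZFPs within 50 kb, 3 of them in its body. Gcm1, a regulator of syncytiotrophoblast formation, had 5 peaks of 5 KRAB-ZFPs, and Esx1, an X-linked homeobox gene of the placenta, had 7 peaks of 6. Ascl2, Cdx2, Elf5, Cited1 and Cited2 each had 1 peak in the gene body, and Tead4 had 2. The retrotransposon-derived genes Peg10 and Rtl1 and the trophoblast gene Plac1 had no peak within 50 kb. In all, 25 of the 29 listed genes found in the annotation had a peak within 50 kb (86.2%), and 8 had one in the body (27.6%). The 10 cathepsin and Tpbp genes had 0 body peaks.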
